A study of Mus musculus with 76 samples.

Results

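Gene expression in the visceral white adipose tissue of 9 female mice was compared between Fnip2C/C (4 mice) and Fnip2T/T (5 mice) animals. The series holds 76 sequencing runs of liver and visceral fat, 4 runs for each mouse and tissue, and the 36 runs of visceral fat from these mice make up 9 of its 19 mouse and tissue libraries. The authors combined the runs into 1 column per mouse, so the mouse was the replicate. Of 18964 entries in the table of visceral fat, the 12798 genes with a mean of at least 10 normalized counts over the 9 mice were tested. Fnip2T/T mice carry the ancestral T at a position in the 3′UTR of *Fnip2* on both chromosomes, and Fnip2C/C mice carry a C there on both, placed by CRISPR/Cas9 editing of zygotes. The Fnip2C/C allele has a further G-to-C change a few bases from that position that removes the PAM. The paper states that it leaves the predicted binding of the microRNA miR-181b-5p unaltered. The effects of the pair of changes cannot be told apart in these mice. The mice were of the C57BL/6 strain and were fed ad libitum, and both genotypes shared sex, strain, tissue and feeding. The paper describes the line as bred from heterozygous parents. It does not give the parents or litters of the sequenced mice. The age of the sequenced mice and the number of founders behind the edited line are not given in the sources used here. The RNA numbers in the labels are even for every Fnip2C/C mouse and odd for every Fnip2T/T mouse, so anything that follows this numbering cannot be told apart from genotype. The mouse numbers run in blocks of a single genotype. They are 590, 593 and 599 for Fnip2C/C, 607, 608 and 609 for Fnip2T/T, 638 for Fnip2C/C, and 657 and 658 for Fnip2T/T. Anything shared within a block cannot be told apart from genotype either.

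FNIP2 is a partner of folliculin. The complex of folliculin with FNIP1 or FNIP2 sits on the lysosome and switches the Rag GTPases, which carry the signal of amino acids to the kinase mTORC1 and hold the transcription factors TFEB and TFE3 in the cytoplasm. White adipocytes store triglyceride in a lipid droplet coated by perilipins, release it through lipases under adrenergic control, rebuild it under insulin, and secrete hormones such as leptin and adiponectin.

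The edited position lies in a match to the seed of the miR-181 family, so the sequences are shown first. The 3′UTR of the longest annotated *Fnip2* transcript (3692 of 7299 nt, GRCm38) holds 2 matches to bases 2 to 8 of miR-181b-5p, in an exon on the minus strand. The first begins at base 2379 of the 3′UTR, within chr3:79457270-79457298, and holds the target of the guide RNA used in the study. The second begins at base 2954, within chr3:79456695-79456723, and was not edited. Capitals mark the seed in the microRNA (RefSeq) and its complement in the annotated transcript, each written 5′ to 3′:
mmu-miR-181b-5p: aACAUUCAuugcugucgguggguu
Fnip2 edited site: gataagtgataTGAATGTataggcaattg
Fnip2 second match: gaagcccccttTGAATGTtaattttttaa
4 mature mouse microRNAs of the table share this seed, miR-181a-5p, miR-181b-5p, miR-181c-5p and miR-181d-5p. A match describes the sequence, and binding was not measured here.

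*Fnip2* itself was read at a low level. Values per mouse are given throughout in the order of mice 590, 593, 599 and 638 for Fnip2C/C and of mice 607, 608, 609, 657 and 658 for Fnip2T/T. Its normalized counts were 24.7, 30.9, 21.7 and 14.1 in the Fnip2C/C mice and 33.6, 26.3, 14.5, 42.6 and 24.3 in the Fnip2T/T mice, and the genotypes overlapped (log2 fold change -0.27, standard error 0.35, limma adjusted p = 0.58). Without mice 593 and 609 the log2 fold change was -0.63 (limma adjusted p = 0.166). *Fnip1*, the paralogue, counted 141 to 199 in Fnip2C/C and 103 to 264 in Fnip2T/T mice (log2 fold change 0.01, standard error 0.24, limma adjusted p = 0.975), and its sign turned to -0.08 without these mice. *Flcn*, the folliculin gene, counted 23.5, 16.8, 19.5 and 12.9 in Fnip2C/C and 46.8, 18.5, 22.3, 26.8 and 37.9 in Fnip2T/T mice (log2 fold change -0.66, standard error 0.33, limma adjusted p = 0.138). None of the 3 genes passed the threshold of 0.05 on the adjusted p. The libraries count tags near the 3′ end of a transcript, and protein was not measured in these files.

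The fat libraries held between 4180209 and 6277644 reads in genes. Adipocyte markers summed to 72024 normalized counts in Fnip2C/C mouse 593 and to between 108836 and 229071 in the other 8 mice, so the labelled tissue was present in each library. Mouse 593 also held 24774 counts of 13 ovary markers, against at most 142 in any other mouse. *Cyp11a1*, which makes steroids in the ovary, counted 15068 in mouse 593 and at most 13.6 elsewhere. Fnip2T/T mouse 609 held 4889 counts of 17 skeletal muscle markers against at most 295 elsewhere, with the fast-muscle troponin *Tnnc2* at 843 and at most 17.3 in the other mice. Brown adipocyte markers stood apart in a mouse of each genotype, at 8367 counts in Fnip2C/C mouse 638 and 3734 in Fnip2T/T mouse 658 against at most 768 elsewhere. The uncoupling protein *Ucp1* counted 17.6, 48.7, 5.42 and 476 in Fnip2C/C and 70.6, 24.3, 27.9, 44.6 and 1137 in Fnip2T/T mice. Every comparison was therefore repeated without mice 593 and 609. On the first principal component, with 47.9% of the variance, the Fnip2C/C mice lay between -83.0 and -24.1 and the Fnip2T/T mice between 22.1 and 59.0.

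**Figure D1:**
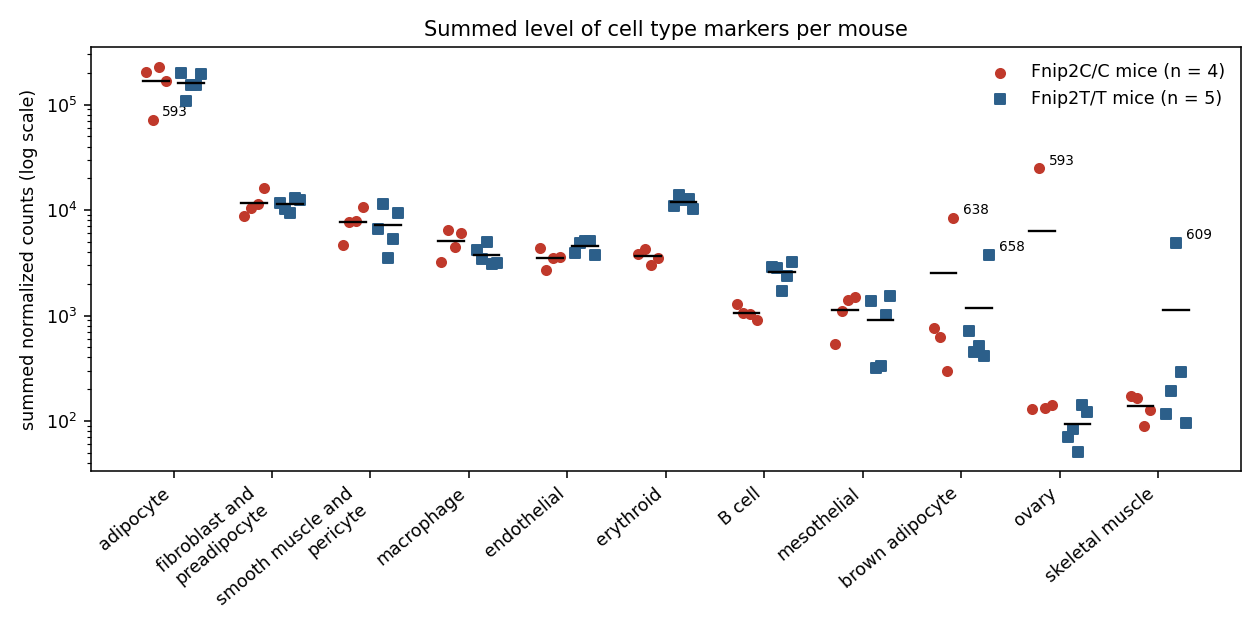
Summed normalized counts of cell type markers (log axis) in each mouse, circles for Fnip2C/C (n = 4) and squares for Fnip2T/T (n = 5), with bars at the means. Mouse 593 is high for ovary and low for adipocyte markers, mouse 609 is high for muscle, mice 638 and 658 are high for brown adipocyte markers, and the erythroid sums do not overlap between genotypes.

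The genotypes differed over a large share of the genes. Of 12798 genes, 4111 (32.1%) passed an adjusted p of 0.05 in limma, 1930 (15.1%) higher and 2181 (17%) lower in Fnip2C/C. The genotypes did not overlap in 3336 genes (26.1%), and 3014 of these were also called. Changes over 2-fold were more often falls, with 833 genes higher and 1453 lower, while the median log2 fold change over all genes was 0.02. Without mice 593 and 609, 4055 genes (31.7%) passed, 1948 (15.2%) higher and 2107 (16.5%) lower, and 3443 genes were called in the same direction in both fits. 0 genes were called in opposite directions. The split between rises and falls depended on the scaling and on the filter on mean level. Scaled to the same total, 39.1% of 3892 calls were higher, compared with 46.9% of 4111. With quantile scaling it was 49.8%, and in DESeq2 and edgeR 49.3% and 46.7%. With the filter at a minimum mean of 50 it was 52.0% of 3196. The counts of the gene lists that follow are read against 15.1% higher and 17% lower, and no list was tested as a whole. In bulk tissue, fewer cells of a type and less RNA per cell cannot be told apart.

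Single adipocyte genes were lower in Fnip2C/C fat, while the summed markers, led by *Cfd*, overlapped between the genotypes. Of 8 adipocyte markers, 6 were lower and 0 higher (median log2 fold change -1.16), and 3 were lower without mice 593 and 609 (median -0.88). *Plin1*, the perilipin that guards the droplet, counted 1749, 472, 1809 and 1229 in Fnip2C/C mice and 4253, 2847, 4016, 3751 and 3528 in Fnip2T/T mice. The groups did not overlap (log2 fold change -1.65, standard error 0.34, limma adjusted p = 0.00385). *Lep* (leptin) counted 656, 379, 495 and 279.9 in Fnip2C/C and 1024, 2552, 3949, 1362 and 705 in Fnip2T/T mice, again without overlap (log2 fold change -1.87, standard error 0.44, limma adjusted p = 0.00769). *Adipoq* (adiponectin) counted 12870.2, 4216, 13622 and 5989 against 21245, 13869, 21290.2, 20023 and 18393, and its call was lost without mice 593 and 609 (-1.20, limma adjusted p = 0.0179, and -0.84, p = 0.0599). *Lipe* (hormone-sensitive lipase) and *Fabp4* (the fatty acid carrier) were called with all mice (-1.11 and -1.09) and missed the threshold without those mice (limma adjusted p = 0.098 and 0.0574). *Retn* (resistin) fell in both fits (-1.48 and -1.14). The other markers did not pass, with *Cfd* (adipsin, a serine protease) at 53287 to 179926 in Fnip2C/C and 47107 to 114349 in Fnip2T/T mice (0.52) and the droplet protein *Cidec* at -0.19 with all mice and 0.23 without mice 593 and 609.

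Among 20 genes of lipolysis and lipid droplets, 7 were lower and 2 higher (median -0.39), with 6 lower and 1 higher without mice 593 and 609 (median -0.04). *Pnpla2* encodes ATGL, the first lipase of triglyceride breakdown, and counted 2740.3, 825, 2108 and 1434 in Fnip2C/C and 6018, 4811, 7114, 5634 and 5283 in Fnip2T/T mice (log2 fold change -1.82, standard error 0.30, limma adjusted p = 0.00137). *G0s2*, an inhibitor of that lipase, counted 9.41, 2.81, 10.8 and 10.54 in Fnip2C/C and 388, 65.2, 30.1, 238 and 701 in Fnip2T/T mice (log2 fold change -4.29, standard error 0.82, limma adjusted p = 0.00375). Both the lipase and its inhibitor were thus below every Fnip2T/T mouse in all 4 Fnip2C/C mice. *Hilpda*, a further inhibitor of ATGL, fell as well (-1.98, limma adjusted p = 0.00102), as did the glycerol channel *Aqp7* (-1.80). The droplet coat proteins went in opposite directions. *Plin3* fell (-0.58, limma adjusted p = 0.0289), and *Plin5*, found mostly in oxidative tissues, rose with counts of 111, 582, 94.3 and 464 in Fnip2C/C and 47.6, 60.3, 78.1, 43.6 and 105 in Fnip2T/T mice (1.85, limma adjusted p = 0.0178). The *Plin5* call was lost without mice 593 and 609 (1.48, limma adjusted p = 0.0541), and the 2 highest mice were 593, which held ovary markers, and 638, which held brown adipocyte markers. The part of these markers in the difference was not tested. *Fitm2*, which helps droplets bud, was at the threshold (0.67, limma adjusted p = 0.0497).

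**Figure D2:**
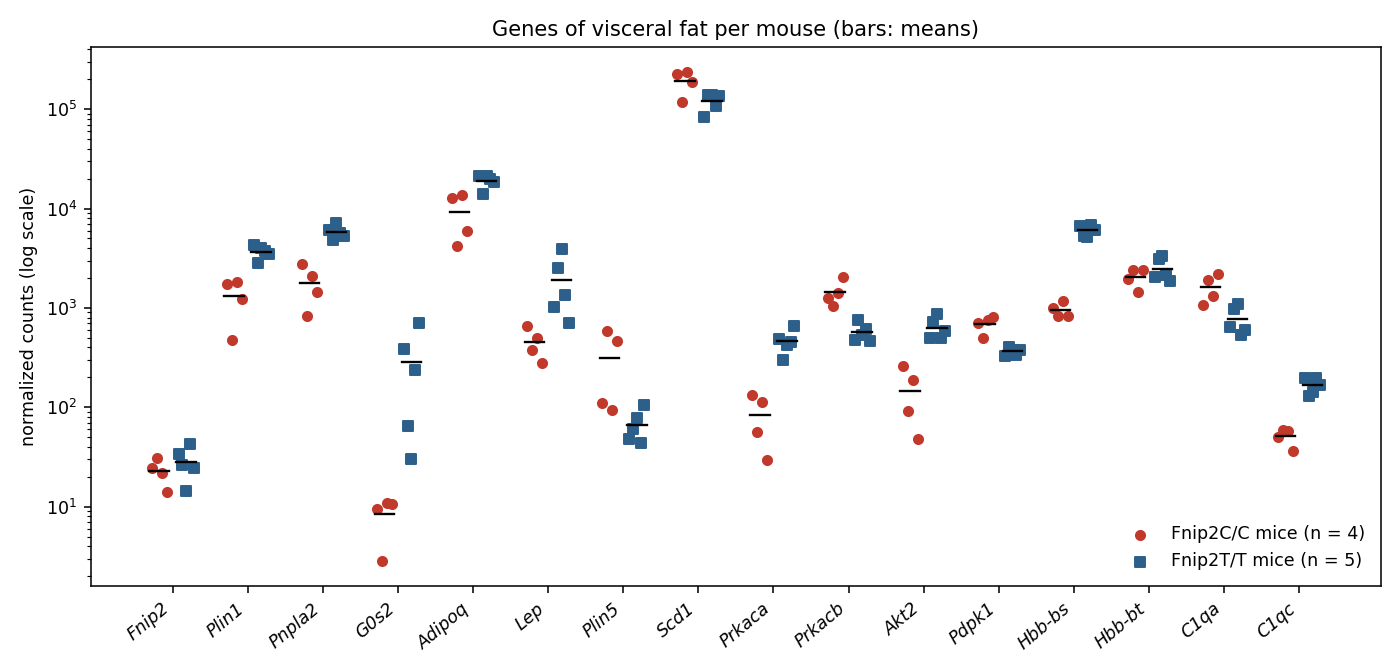
Normalized counts (log axis) of 16 genes in each mouse, circles for Fnip2C/C (n = 4) and squares for Fnip2T/T (n = 5), with bars at the means. The genotypes overlap for *Fnip2* and *Hbb-bt* and do not overlap for *Plin1*, *Pnpla2*, *G0s2*, *Prkaca*, *Akt2* and *Hbb-bs*, while *Prkacb* and *Pdpk1* are higher in every Fnip2C/C mouse.

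Genes of fatty acid uptake and triglyceride assembly gave 9 lower and 1 higher of 31 (median -0.31), and 4 lower and 5 higher without mice 593 and 609 (median -0.15), so this list rested in part on those mice. *Acsl5*, which activates fatty acids, counted 72.9, 48.7, 46.6 and 50.4 in Fnip2C/C and 123, 92.4, 87.1, 147 and 178 in Fnip2T/T mice (log2 fold change -1.16, standard error 0.25, limma adjusted p = 0.00449), and the transporter *Slc27a4* rose (0.70, limma adjusted p = 0.0194). *Lpl*, the lipase that frees fatty acids from lipoproteins, was called with all mice (-1.07, limma adjusted p = 0.0332) and not without mice 593 and 609 (-0.58, p = 0.128). *Mogat1*, an acyltransferase of triglyceride assembly, fell at low counts of 2.81 to 11.8 in Fnip2C/C and 10.7 to 53.1 in Fnip2T/T mice (-1.84). In fatty acid synthesis 3 of 19 genes were lower and 1 higher (median -0.39), with 3 lower and 2 higher without mice 593 and 609. The desaturases *Fads3* (-1.67) and *Fads1* (-1.07) and the acetyl-CoA synthetase *Acss2* (-1.82) fell. *Acss2* was lowest in mouse 638, at 160.5, against 1144 to 3072 in Fnip2T/T mice. *Scd3*, a stearoyl-CoA desaturase, rose (1.61, limma adjusted p = 0.0279).

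The most abundant enzymes of the pathway did not pass. *Fasn* (fatty acid synthase) counted 48104 to 120915 in Fnip2C/C and 49065 to 98394 in Fnip2T/T mice (0.21, limma adjusted p = 0.653). *Scd1*, the main desaturase of fat, counted 223872, 119084, 237662 and 185950 in Fnip2C/C and 83739, 139801, 139337, 106559 and 135069 in Fnip2T/T mice (log2 fold change 0.64, standard error 0.31, limma adjusted p = 0.128), and passed without mice 593 and 609 (0.91, p = 0.0395). *Scd1* and *Scd3* are close copies, and reads can be assigned to the wrong copy. In sterol synthesis 3 of 25 genes were lower and 1 higher (median -0.42), with 6 lower and 0 higher without mice 593 and 609. *Fdft1*, the squalene synthase, counted 83.5, 40.2, 43.4 and 18.7 in Fnip2C/C and 144, 135, 122, 158 and 134 in Fnip2T/T mice (log2 fold change -1.73, standard error 0.32, limma adjusted p = 0.00239).

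Adipokines and their receptors showed falls without a rise, 7 of 17 (median -0.63), and 6 of 17 without mice 593 and 609. Beside *Lep*, *Adipoq* and *Retn*, the secreted factor *Metrnl* (meteorin-like) counted 15.3, 15.0, 13.01 and 7.03 in Fnip2C/C and 49.2, 42.8, 26.8, 50.6 and 50.8 in Fnip2T/T mice (log2 fold change -1.75, standard error 0.32, limma adjusted p = 0.002). The apelin receptor gene *Aplnr* fell from 66.4 ± 37.3 (SD, n = 5) to 17.9 ± 4.89 (SD, n = 4) normalized counts (-1.68). Of 48 genes of adrenergic receptors, G proteins and cAMP, 14 were lower and 5 higher (median -0.19), with 15 lower and 8 higher without mice 593 and 609. The catalytic subunits of protein kinase A, the cAMP-dependent kinase that activates lipolysis, moved in opposite directions. *Prkaca* counted 133, 56.2, 113 and 29.3 in Fnip2C/C and 492, 299, 423, 452 and 654 in Fnip2T/T mice (log2 fold change -2.65, standard error 0.38, limma adjusted p = 0.000922). *Prkacb* counted 1264, 1051, 1415 and 2049 in Fnip2C/C and 478, 765, 539, 607 and 468 in Fnip2T/T mice (log2 fold change 1.32, standard error 0.22, limma adjusted p = 0.00149).

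Within the receptors of that list 5 of 12 were lower and 0 higher, with 5 and 3 without mice 593 and 609, and *Adrb3*, the main beta-adrenergic receptor of fat, was not among them (571 to 1665 in Fnip2C/C and 1029 to 2061 in Fnip2T/T mice, -0.34, limma adjusted p = 0.43). *Gnas*, which encodes the stimulatory G protein, did not pass either (-0.10). *Gna13*, a G protein alpha subunit, rose (1.13, limma adjusted p = 0.00102), and *Gnb2*, a beta subunit, fell from between 10.05 and 166 counts in Fnip2T/T mice to at most 5.42 in Fnip2C/C mice. In insulin signalling 7 of 18 genes were lower and 1 higher (median -0.50), and 5 lower and 3 higher without mice 593 and 609. *Akt2*, the kinase that passes the insulin signal on in fat, counted 259.9, 90.8, 186 and 48.0 in Fnip2C/C and 502, 715, 862, 494 and 579.8 in Fnip2T/T mice (log2 fold change -2.34, standard error 0.40, limma adjusted p = 0.00174). *Pdpk1*, the kinase that phosphorylates it, rose with 701, 499.8, 757 and 818 against 329.9, 408, 375, 339 and 379 (log2 fold change 0.90, standard error 0.18, limma adjusted p = 0.00326). The insulin receptor gene *Insr* missed the threshold (0.53, limma adjusted p = 0.0573) and passed without mice 593 and 609 (p = 0.043), and the glucose transporter gene *Slc2a4* did not pass in either fit (-0.44 and -0.32). Of 8 genes of caveolae, the membrane pits that are dense on adipocytes, 4 were lower and 0 higher, among them *Cav2* (-1.66), *Cav1* (-1.36) and *Cavin3*. *Cav2* counted 228 to 519 in Fnip2C/C and 718 to 1960.2 in Fnip2T/T mice, and *Cavin3* 162 to 269.9 in Fnip2C/C and 356 to 605 in Fnip2T/T mice.

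Genes around folliculin and mTORC1 gave 8 lower and 3 higher of 36 (median -0.19), and 7 lower and 5 higher without mice 593 and 609. The falls included *Wdr24* and *Sec13* of the GATOR2 complex, which relieves the block on mTORC1 when amino acids are present, and the Rag GTPase gene *Rraga*. *Rraga* counted 38.8, 32.8, 34.7 and 17.6 in Fnip2C/C and 140.3, 62.3, 64.7, 133 and 174 in Fnip2T/T mice (log2 fold change -1.80, standard error 0.35, limma adjusted p = 0.00273). The log2 fold changes were -2.21 for *Wdr24* and -2.18 for *Sec13*. *Mios*, another GATOR2 subunit, rose (76.4 to 185 in Fnip2C/C and 45.6 to 74.8 in Fnip2T/T mice, 1.14, limma adjusted p = 0.00599), as did the GATOR1 subunit *Nprl2* (0.71) and the transcription factor *Tfe3* (0.53, limma adjusted p = 0.0272). In the mTOR list 3 of 18 genes were lower and 2 higher (median -0.19), with 3 lower and 1 higher without mice 593 and 609. *Rheb*, the GTPase that switches mTORC1 on, counted 75.3, 56.2, 55.3 and 22.3 in Fnip2C/C and 160.0, 127, 118, 149.7 and 128 in Fnip2T/T mice (log2 fold change -1.49, standard error 0.30, limma adjusted p = 0.00326). *Ulk1*, the autophagy kinase under mTORC1 (-1.64), and *Tbc1d7*, of the TSC complex (-1.11), fell. *Tsc2*, of the same complex (0.63), and *Rictor*, of mTORC2 (0.59), rose. *Rictor* missed the threshold without mice 593 and 609 (limma adjusted p = 0.0576). *Mtor* itself counted 139 to 223 in Fnip2C/C and 145 to 279 in Fnip2T/T mice (-0.38, limma adjusted p = 0.211).

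Lysosome and autophagy genes were called often and about evenly, 19 higher and 21 lower of 71, and the sign of their median (-0.01) turned without mice 593 and 609 (0.04) and under DESeq2 scaling. The cathepsin gene *Ctsl* counted 238, 140.4, 204 and 122 in Fnip2C/C and 937, 860.0, 649.7, 1218 and 1013.3 in Fnip2T/T mice (log2 fold change -2.43, standard error 0.24, limma adjusted p = 0.000304). The peptidase gene *Tpp1* (-2.19) and the proton pump subunit *Atp6v0e* (-2.32) fell in the same way, with no overlap between genotypes. *Cln6*, a membrane protein needed for the delivery of lysosomal enzymes, rose with 153, 204, 168 and 201 in Fnip2C/C and 55.8, 74.9, 65.9, 53.5 and 51.5 in Fnip2T/T mice (log2 fold change 1.58, standard error 0.19, limma adjusted p = 0.000476). Of 18 proton pump genes 5 were higher and 7 lower, and of 27 hydrolases 7 were higher and 6 lower.

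Of 26 adipogenic transcription factors and their partners, 5 were lower and 2 higher, with 5 lower and 4 higher without mice 593 and 609, and the sign of their median (-0.04) turned under quantile scaling and without these mice. *Pparg*, the master regulator of the adipocyte, counted 178, 79.5, 141 and 226 in Fnip2C/C and 121, 107, 98.2, 91.2 and 146 in Fnip2T/T mice (log2 fold change 0.39, standard error 0.27, limma adjusted p = 0.292). *Cebpa* did not pass either (-0.57, limma adjusted p = 0.183). *Stat5b* rose (245 to 496 in Fnip2C/C and 136 to 221 in Fnip2T/T mice, 1.16). *Cebpd*, an early factor of differentiation (-2.25), and *Klf2*, which restrains it (-2.38), fell. *Klf2* counted 165, 38.4, 196 and 56.2 in Fnip2C/C and 556, 430.0, 277, 619 and 635 in Fnip2T/T mice (log2 fold change -2.38, standard error 0.44, limma adjusted p = 0.00253).

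Nuclear genes of the respiratory chain and ATP synthase fell more often than they rose. Of 74 subunits of the respiratory chain and ATP synthase, 35 were lower and 11 higher (median -0.49), with 30 and 12 without mice 593 and 609. The genotypes did not overlap in 45 of the 74, against 26.1% of all genes. *Cox8a*, a small subunit of cytochrome c oxidase, counted 71.7, 29.9, 59.6 and 11.7 in Fnip2C/C and 507, 439.7, 386, 708 and 709 in Fnip2T/T mice (log2 fold change -3.88, standard error 0.43, limma adjusted p = 0.000366). The complex I genes *Ndufa8* (-3.54), *Ndufa1* (-3.51) and *Ndufb8* (-2.14) fell. *Ndufa8* counted 19.99, 13.1, 16.3 and 16.4 in Fnip2C/C and 289.7, 123, 71.4, 303 and 405 in Fnip2T/T mice. *Cox7a2l*, of the same list, rose with 2062, 2312, 2194 and 3165 against 865, 842, 866, 793 and 793 (log2 fold change 1.53, standard error 0.18, limma adjusted p = 0.000387). The called subunits that rose had a median level of 1829 counts in Fnip2T/T mice, and those that fell 716.

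In the TCA cycle and the oxidation of acyl-CoA, 20 of 56 genes were lower and 6 higher (median -0.47), with 16 lower and 10 higher without mice 593 and 609. By step, 7 of 17 genes of the cycle and 6 of 9 genes of branched-chain and propionyl-CoA breakdown were lower (4 and 5 without these mice), while 4 of 15 genes of beta-oxidation were higher and 2 lower. *Mcee*, the methylmalonyl-CoA epimerase, fell (-2.12, limma adjusted p = 0.000636). The carnitine carrier *Slc25a20* counted 54.1, 29.0, 45.5 and 48.0 in Fnip2C/C and 186, 143, 90.4, 147 and 225 in Fnip2T/T mice (log2 fold change -1.79, standard error 0.27, limma adjusted p = 0.00102). *Pccb*, a subunit of propionyl-CoA carboxylase, fell (-1.65), and *Etfdh*, which passes electrons from beta-oxidation to the respiratory chain, rose (1.15, limma adjusted p = 0.0047). In glycolysis 3 of 23 genes were higher and 4 lower. The triose isomerase *Tpi1* (-1.26) and the regulator *Pfkfb1* (-1.55) fell, and the phosphofructokinase *Pfkm* rose with 125, 219, 152 and 247 in Fnip2C/C and 77.1, 73.9, 77.0, 62.5 and 69.0 in Fnip2T/T mice (log2 fold change 1.31, standard error 0.22, limma adjusted p = 0.00138).

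Transcripts of the mitochondrial genome, which are cut from long precursors, moved apart from each other. Of 15 messenger and ribosomal RNAs, 5 were higher and 3 lower. The falls were -2.08 for *mt-Cytb*, -1.56 for *mt-Nd4* and -1.32 for *mt-Atp6* on the log2 scale. The rises were 1.63 for *mt-Co3*, 1.60 for *mt-Atp8*, 1.44 for *mt-Nd3*, 1.11 for *mt-Nd6* and 0.94 for *mt-Nd4l*. *mt-Cytb* counted 15782, 6699, 12475 and 9560.1 in Fnip2C/C and 51621, 28241, 29023, 46867 and 91044 in Fnip2T/T mice (log2 fold change -2.08, standard error 0.37, limma adjusted p = 0.00183). *mt-Co3* counted 2727, 2184, 3553 and 7965 in Fnip2C/C and 952, 1152, 1117, 1208 and 1428 in Fnip2T/T mice (log2 fold change 1.63, standard error 0.31, limma adjusted p = 0.0027). *mt-Atp6* and *mt-Co3* are neighbours in the mitochondrial genome, and *mt-Atp8* overlaps *mt-Atp6*. The share of all reads from the mitochondrial genome was 14.8% ± 3.91 (SD, n = 4) in Fnip2C/C and 16.2% ± 2.60 (SD, n = 5) in Fnip2T/T mice, and did not pass (adjusted p = 0.684, exact two-sided permutation test). Reads were primed with oligo-dT, so a count depends on adenylated or adenine-rich ends as well as on the amount of RNA. *mt-Nd4* was highest in Fnip2T/T mouse 658, at 386899 counts.

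Genes of the cytosolic ribosome fell in 34 and rose in 12 of 74 cases (median -0.61), and fell in 37 and rose in 10 without mice 593 and 609 (median -0.85). *Rps12* had a p-value among the 5 lowest of the falls, with 34.1, 56.2, 32.5 and 14.1 in Fnip2C/C and 414, 323, 332, 372 and 379.7 in Fnip2T/T mice (log2 fold change -3.52, standard error 0.30, limma adjusted p = 0.000126). *Rpl41* (-1.70) and *Rpl22l1*, a paralogue of the large-subunit gene *Rpl22* (-3.84), fell. *Rpl14* rose with 6897, 13743, 9479 and 11242 in Fnip2C/C and 3643, 4162, 3205, 3022 and 4581 in Fnip2T/T mice (log2 fold change 1.45, standard error 0.24, limma adjusted p = 0.00137). *Rps20* rose too, from 8498 ± 1346 (SD, n = 5) to 30194 ± 12808 (SD, n = 4), with mouse 593 the highest. Called ribosomal genes that rose had a median level of 1987 counts in Fnip2T/T mice, and those that fell 533. These genes have many processed pseudogenes, and the reads of a gene and its copies may have been split in counting. As a share of all reads the cytosolic ribosomal genes took 2.99% ± 1.36 (SD, n = 4) in Fnip2C/C, with mouse 593 at 5.00%, and 2.17% ± 0.321 (SD, n = 5) in Fnip2T/T mice (adjusted p = 0.343, exact two-sided permutation test).

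Other complexes of protein synthesis and decay were mixed. Mitochondrial ribosomal genes were lower in 19 and higher in 14 of 72 cases (median -0.08), with -2.03 for *Mrpl33*, -1.31 for *Mrpl18* and 1.17 for *Mrps24* on the log2 scale. Of 46 translation factors 11 were lower and 7 higher, and the sign of their median (-0.01) turned under DESeq2 scaling and without mice 593 and 609. *Eif4g2*, a scaffold of cap-independent initiation, counted 916, 717, 715 and 509.5 in Fnip2C/C and 2198, 2330.0, 2235, 2100.3 and 2224 in Fnip2T/T mice (log2 fold change -1.66, standard error 0.19, limma adjusted p = 0.000366). The initiation factors *Eif3e* (-2.33) and *Eif1* (-1.56) fell. Proteasome subunits were lower in 7 and higher in 6 of 39 cases, close to the shares over all genes. *Psmd3* counted 96.4, 77.7, 95.4 and 28.1 in Fnip2C/C and 471, 319, 301, 402 and 684 in Fnip2T/T mice (log2 fold change -2.61, standard error 0.35, limma adjusted p = 0.000736), and *Psma2* fell by 2.33 on the log2 scale. Of 29 splicing factors 10 were lower and 4 higher (median -0.07). *Srsf9* (-2.34) and *Srsf1* (-1.24) fell, and *Hnrnpr* rose with 787, 979, 1050.3 and 1618 in Fnip2C/C and 487, 518, 483, 492 and 510.0 in Fnip2T/T mice (log2 fold change 1.10, standard error 0.20, limma adjusted p = 0.00206).

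**Figure D3:**
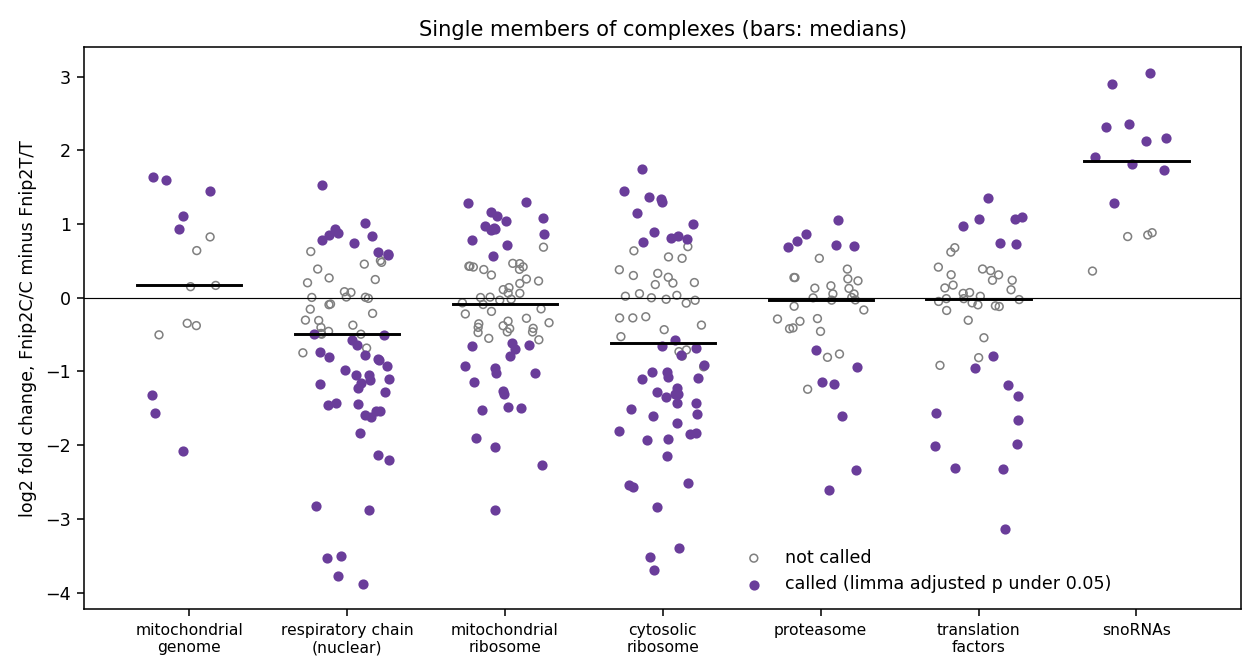
Log2 fold change (Fnip2C/C minus Fnip2T/T) of single members of 7 groups, filled where limma called the gene and open where not, with bars at the medians. Members of the respiratory chain, of both ribosomes and of the mitochondrial genome lie on both sides of 0, while the 10 called small nucleolar RNAs are all above 0.

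**Figure D4:**
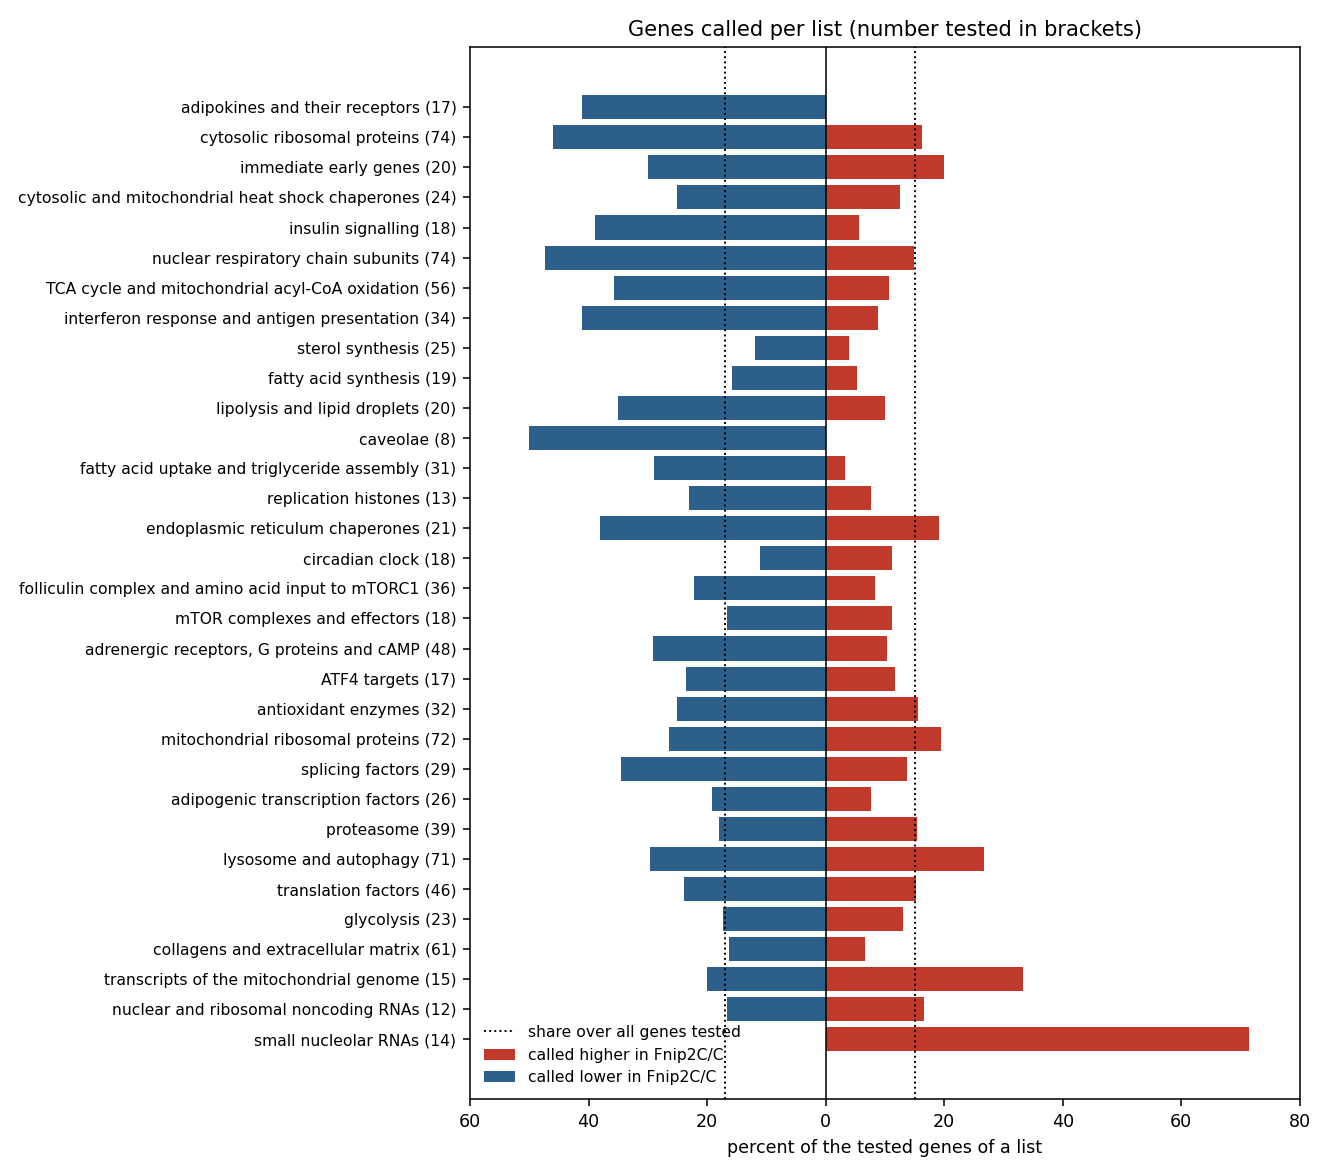
Percent of the tested genes of each of 32 lists called lower (left) and higher (right) in Fnip2C/C mice, with the number tested in brackets and dotted lines at the shares over all genes, 17% and 15.1%. Respiratory chain and cytosolic ribosomal genes exceed the dotted line on the left, and small nucleolar RNAs on the right.

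Stress genes did not move as 1 group. Of 17 genes of the ATF4 list 2 were higher and 4 lower. Among the factors, *Ddit3* (CHOP) counted 525, 957.4, 842 and 1367 in Fnip2C/C and 215, 342, 544, 144 and 241 in Fnip2T/T mice (log2 fold change 1.70, standard error 0.36, limma adjusted p = 0.00443), and *Atf4* rose (0.78, limma adjusted p = 0.0267). Among 12 targets 4 fell and 0 rose (median -0.73), and 2 fell without mice 593 and 609 (median -0.43). *Slc3a2*, the heavy chain of amino acid transporters, counted 57.6, 26.2, 43.4 and 17.6 in Fnip2C/C and 182, 102, 132, 203 and 202 in Fnip2T/T mice (log2 fold change -2.24, standard error 0.33, limma adjusted p = 0.000904), and the tRNA exporter *Xpot* fell (-1.71). Of 21 genes of endoplasmic reticulum chaperones 8 were lower and 4 higher (median -0.24). The disulfide isomerases *Pdia6* (-1.77) and *P4hb* (-0.90) fell and *Pdia4* rose (1.46). *Hspa5* (BiP) counted 1956 to 2597 in Fnip2C/C and 1406 to 2460.3 in Fnip2T/T mice (0.21, limma adjusted p = 0.463). Of 24 heat shock chaperones and factors 6 were lower and 3 higher (median -0.51), with -1.85 for *Cryab*, -1.06 for *Hspd1* and 1.10 for *Stip1*.

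Of 32 antioxidant genes 8 were lower and 5 higher, with 5 lower and 6 higher without mice 593 and 609. The sign of their median log2 fold change (-0.10) turned under edgeR and DESeq2 scaling. The peroxiredoxin *Prdx1* counted 218, 100.1, 203 and 60.9 in Fnip2C/C and 1361, 967, 824, 1609 and 1693 in Fnip2T/T mice (log2 fold change -3.27, standard error 0.36, limma adjusted p = 0.000366). The mitochondrial dismutase *Sod2* counted 118, 35.6, 82.4 and 62.1 in Fnip2C/C and 525, 279, 233, 649 and 872 in Fnip2T/T mice (log2 fold change -2.72, standard error 0.41, limma adjusted p = 0.00106). *Fth1*, the ferritin heavy chain, fell by 1.79 on the log2 scale, and no Fnip2C/C mouse reached the lowest Fnip2T/T mouse in any of these genes. Of 20 immediate early genes 6 were lower and 4 higher (median -0.55). *Jund*, an AP-1 factor, rose with 1998, 2572, 2961 and 3948 in Fnip2C/C and 837, 959, 967, 817 and 748 in Fnip2T/T mice (log2 fold change 1.69, standard error 0.21, limma adjusted p = 0.000508). *Ier5* (-2.27) and *Btg2* (-1.34) fell. Of 18 clock genes 2 were lower and 2 higher. *Per1*, a light- and hormone-responsive clock gene, counted 29.4, 19.7, 28.2 and 17.6 in Fnip2C/C and 163, 55.5, 78.1, 97.2 and 148 in Fnip2T/T mice (log2 fold change -2.07, standard error 0.32, limma adjusted p = 0.00107). *Per2* fell at low counts (-2.55, limma adjusted p = 0.023) and the nuclear receptor *Rora* rose (1.04). The hour at which each mouse was killed is not given in the sources used here.

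Of 61 genes of the extracellular matrix 10 were lower and 4 higher (median 0.13), with 10 lower and 10 higher without mice 593 and 609. Of 29 collagens 5 were lower and 0 higher, and 4 lower and 3 higher without these mice. *Hspg2* (perlecan), a proteoglycan of the basement membrane, counted 59.98, 33.7, 47.7 and 62.1 in Fnip2C/C and 254, 273, 152, 474 and 221 in Fnip2T/T mice (log2 fold change -2.35, standard error 0.29, limma adjusted p = 0.000508). The laminin chain *Lamb1* (-1.09) and the elastic fibre protein *Fbln5* (-1.10) fell. *Thbs1* (thrombospondin 1) rose with 247, 624, 396 and 1249.8 in Fnip2C/C and 188, 98.3, 80.4, 156 and 84.1 in Fnip2T/T mice (log2 fold change 2.19, standard error 0.41, limma adjusted p = 0.00261). Of 34 genes of the interferon response and antigen presentation 14 were lower and 3 higher (median -0.43), and 12 and 2 without mice 593 and 609. The class I gene *H2-D1* (-1.67) and the class II genes *H2-Aa* (-1.47) and *H2-Eb1* (-1.47) fell, with *H2-Eb1* at 378, 345, 374 and 223 in Fnip2C/C and 872, 811, 1072, 849.8 and 889.7 in Fnip2T/T mice. Histocompatibility genes resemble each other, so reads can be shared among them.

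Erythroid and B cell markers were lower in Fnip2C/C fat. Erythroid markers summed to between 3045 and 4302 counts in Fnip2C/C and between 10331 and 13806 in Fnip2T/T mice, and 4 of 5 were lower. The beta-globin gene *Hbb-bs* had the lowest p-value among the genes named here, with 1004.4, 830.1, 1181 and 832 in Fnip2C/C and 6691, 5346, 5134, 6879 and 6067 in Fnip2T/T mice (log2 fold change -2.65, standard error 0.19, limma adjusted p = 4.19e-05). Its near-identical neighbour *Hbb-bt* counted 1959, 2427, 1438 and 2425 and 2063, 3091, 3301, 2126 and 1880.2 and did not pass (-0.27, limma adjusted p = 0.414). The alpha-globin copies *Hba-a1* (-3.16) and *Hba-a2* (-2.37) fell. Reads may be split unevenly between such copies, so the value of a single globin gene is uncertain. B cell markers summed to between 910.1 and 1273 counts in Fnip2C/C and between 1696 and 3250 in Fnip2T/T mice, with 3 of 4 lower, among them the immunoglobulin chains *Igkc* (-1.50) and *Ighm* (-1.07). Of the 7 B cell markers listed, 6 had an entry in the deposited values, and the defining marker *Cd79a* had none.

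Of 13 macrophage markers 3 were lower and 1 higher. *C1qa* and *C1qc*, whose products join in 1 complement protein, moved in opposite directions. *C1qa* counted 1063, 1889.5, 1309 and 2170.4 in Fnip2C/C and 638, 986, 1087, 533 and 606 in Fnip2T/T mice (log2 fold change 1.06, standard error 0.27, limma adjusted p = 0.0106). *C1qc* counted 50.6, 59.0, 57.4 and 36.3 in Fnip2C/C and 196, 129, 144, 196 and 169 in Fnip2T/T mice (log2 fold change -1.70, standard error 0.21, limma adjusted p = 0.000508). *Csf1r*, the receptor that keeps macrophages alive, overlapped between genotypes (0.52, limma adjusted p = 0.185). Of 8 endothelial markers 2 were lower and 1 higher, with the growth factor receptor *Kdr* lower (-1.03). Of 7 smooth muscle and pericyte markers 3 were lower and 1 higher. *Acta2* fell (-1.73, limma adjusted p = 0.00591), while *Myh11* of the same cells counted 1194 to 4005 in Fnip2C/C and 461 to 2493 in Fnip2T/T mice and did not pass (0.85). Of 8 fibroblast and preadipocyte markers 3 were higher and 1 lower. None of 9 mesothelial, 5 brown adipocyte, 14 skeletal muscle, 4 Schwann cell, 3 oviduct and uterine, 2 T cell, 1 neutrophil and 1 pancreas markers was called with all mice, and 1 T cell marker was higher without mice 593 and 609. Of 5 mast cell and 8 ovary markers 1 each was higher, for ovary the oocyte factor *Gdf9*, and the mast cell call was lost without mice 593 and 609. Of 2 liver markers *Alb* was lower (-1.68).

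The counts of the small nucleolar RNAs that could be tested rose together. Of 40 of these RNAs (snoRNAs) listed, which guide the modification and cutting of other RNAs, 14 passed the filter on mean level. Of these, 10 were higher and 0 lower (median 1.86), with 9 higher without mice 593 and 609 (median 1.76). An RNA could pass the filter through high Fnip2C/C values alone, as *Snord67* did (mean 34.8 in Fnip2C/C and 5.84 in Fnip2T/T mice). The part of the filter in these counts was not tested. Reads were primed with oligo-dT, so counts of these and other noncoding RNAs depend on adenylated or adenine-rich ends as well as on amount. The part of such ends in the rise was not tested. *Snord3a*, the U3 RNA of ribosome assembly, counted 129, 303, 232 and 333 in Fnip2C/C and 37.7, 92.4, 52.5, 45.6 and 49.3 in Fnip2T/T mice (log2 fold change 2.13, standard error 0.31, limma adjusted p = 0.000809). *Snord67* (2.36) and *Snord55* (2.17) rose as well. *Rny3*, a Y RNA, and *Rn7s2*, of the signal recognition particle, rose (1.65 and 1.47), in a list of 12 further nuclear and ribosomal noncoding RNAs with 2 higher and 2 lower (2 and 1 without mice 593 and 609). *Neat1*, the scaffold of paraspeckles, fell (2987 to 5478 in Fnip2C/C and 4994 to 9652 in Fnip2T/T mice, -0.94, limma adjusted p = 0.0137). Of 13 histone genes of DNA replication, whose messengers mostly lack a poly(A) tail, 3 were lower and 1 higher. *H2bc4* counted 487, 235, 529 and 130.0 in Fnip2C/C and 899, 806, 956.7, 863 and 843 in Fnip2T/T mice (log2 fold change -1.55, standard error 0.34, limma adjusted p = 0.00546), and *H4c8* (-1.23) and *H3c4* (-1.29) fell.

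Shares of all reads were tested over all groupings of the mice into 4 and 5, where the smallest p is 0.00794. Of 9 measures, 3 passed after adjustment. These sets differ from the tested members of the lists. The snoRNA share counted genes annotated to that class at any level, which leaves out *Snord3a*. The replication histone share covered all 32 genes of that list, of which 13 were tested singly. SnoRNA genes took 0.0848% ± 0.0565 (SD, n = 4) in Fnip2C/C and 0.0204% ± 0.0048 (SD, n = 5) in Fnip2T/T mice (adjusted p = 0.0238, exact two-sided permutation test). Mouse 593 was the highest at 0.164%, and the lowest Fnip2C/C mouse, at 0.0395%, was still above the highest Fnip2T/T mouse, at 0.0272%. Genes of mitochondrial tRNAs took 0.0415% ± 0.0259 (SD, n = 4) and 0.0131% ± 0.00219 (SD, n = 5), with the same exact permutation p. Of 18 mitochondrial tRNA genes, 9 passed the filter on mean level, and 5 of these were higher and 1 lower (median 1.63). The part of the filter in this count was not tested. Replication histone genes took 0.0271% ± 0.00882 (SD, n = 4) and 0.0475% ± 0.00331 (SD, n = 5), again with the same exact permutation p. The difference in snoRNA share was 0.0644 percentage points with all mice and 0.0379 without mouse 593, and that in mitochondrial tRNA share was 0.0283 with all mice and 0.0158 without mouse 638. With 1 mouse left out, none of the 3 could pass after adjustment over the 9 measures. The other 6 measures had an adjusted p of at least 0.343 by the exact permutation test, among them the share of processed pseudogenes (0.617% in Fnip2C/C and 0.735% in Fnip2T/T mice), of long noncoding genes (1.49% and 1.53%) and of the 20 most read genes (30.3% and 31.2%). The other was the number of genes with a read at 1 common depth, 17334 and 17554. RNA integrity values are not given in the sources used here, and their part in these shares was not tested.

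The largest rises and falls were taken among protein-coding genes with a mean of at least 50 counts, without overlap between the genotypes, and called in both fits (968 higher and 954 lower). *Lgals7*, a galectin of epithelia, had the largest rise, with 57.6, 109, 135 and 272 in Fnip2C/C and 18.1, 5.84, 7.81, 28.8 and 30.3 in Fnip2T/T mice (log2 fold change 2.96, standard error 0.52, limma adjusted p = 0.00196). *Thbs1* followed, then *Fads6*, a desaturase-like gene whose log2 fold change went from 2.11 to 1.36 without mice 593 and 609. Mouse 593 held 788 counts of it. The oocyte factor *Gdf9* was likewise highest in mouse 593, at 290.1 counts, and its log2 fold change went from 1.88 to 1.18. The remaining rises were 1.94 for *Clip2*, 1.88 for *Slc16a9*, 1.88 for *Nfatc4*, 1.84 for *Mctp1*, 1.83 for *Zfp444*, 1.81 for *Gatd1*, 1.80 for *Trappc6a* and 1.79 for *Stom*. *Stom* (stomatin, a membrane protein) counted 1303, 1065, 1894 and 3522 in Fnip2C/C and 386, 465, 573, 503 and 619 in Fnip2T/T mice (log2 fold change 1.79, standard error 0.30, limma adjusted p = 0.0014). *Nfatc4*, a calcineurin-dependent transcription factor, counted 419.9 to 1116 in Fnip2C/C and 147 to 254 in Fnip2T/T mice. The p-values were lowest among rises for *Zfp655*, *Fbxo31*, *Cox7a2l*, *Cln6* and *Jund*. *Zfp655* counted 419, 358, 371 and 501 in Fnip2C/C and 121, 146, 115, 128 and 94.7 in Fnip2T/T mice, and *Fbxo31*, a subunit of a ubiquitin ligase, 499.8 to 698 in Fnip2C/C and 172 to 219 in Fnip2T/T mice.

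The falls went further than the rises. After *G0s2* and *Cox8a* came *Sf3b5*, a subunit of the U2 splicing particle, with 22.3, 1.87, 22.8 and 2.34 in Fnip2C/C and 163, 95.3, 65.9, 149 and 182 in Fnip2T/T mice (log2 fold change -3.86, standard error 0.63, limma adjusted p = 0.00147). *Tuba1b*, an alpha-tubulin, counted 158, 109, 194 and 28.1 in Fnip2C/C and 1002, 1500.2, 1731, 1284 and 1861 in Fnip2T/T mice (log2 fold change -3.86, standard error 0.45, limma adjusted p = 0.000508). Tubulin genes are similar in sequence, and reads can be shared among them. The kinase gene *Pim3* (-3.40) and the diphosphatase gene *Nudt3* (-3.27) fell, and the other large falls, *Rpl22l1*, *Ndufa8*, *Rps12*, *Ndufa1*, *Prdx1* and *Hba-a1*, belong to groups described above. The lowest p-values among falls were those of *Hbb-bs*, *Rps12*, *Ctsl*, *Tubb2a* and *Nudt3*. *Tubb2a*, a beta-tubulin, counted 12.9, 20.6, 31.4 and 14.1 in Fnip2C/C and 119, 167, 132, 121 and 225 in Fnip2T/T mice (log2 fold change -2.93, standard error 0.29, limma adjusted p = 0.000304). *Nudt3* counted 12.9 to 30.6 in Fnip2C/C and 131 to 324 in Fnip2T/T mice.

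Changes varied with the features of the genes, described here across 11313 protein-coding genes, which are not independent replicates and share the same libraries. The genes were split into 5 bins by each feature. From the shortest to the longest bin of transcripts, the share called lower went from 25.5% to 9.501% and the share called higher from 14.0% to 19.0%, and the median log2 fold change from -0.16 to 0.20 (Spearman correlation 0.15). From the lowest to the highest bin of mean level, the share called higher went from 3.89% to 27.1%, while the share called lower was between 13.4% and 20.9% (correlation 0.14, and 0.21 without mice 593 and 609). The power to call a gene also rises with its level, and its part in these shares was not tested. The correlation was 0.13 for the number of exons, 0.06 for the length of the 3′UTR and 0.01 for GC content. By class, 52.0% of the 25 snoRNA genes that passed the filter on mean level were called higher and 0% lower. The shares were 14.7% and 17.5% of 11319 protein-coding genes and 26.6% and 20.5% of 229 processed pseudogenes. A snoRNA could pass the filter through high Fnip2C/C values alone, as described above, and the part of the filter was not tested. Without mice 593 and 609 the pseudogenes turned to 23.1% higher and 27.5% lower, and mouse 593 had the highest share of reads in processed pseudogenes, transcribed members included, among Fnip2C/C mice, at 0.832%. By chromosome, 10.49% to 18.01% of the genes were higher and 12.8% to 21.0% lower.

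The genes around the edit were also looked at. Of the 20 tested genes nearest to *Fnip2* on chromosome 3, 10 on each side, 1 was higher and 2 were lower (median log2 fold change -0.31), against 15.1% and 17% of all genes. *Etfdh*, described above, was the higher gene and counted 174, 115, 132 and 287 in Fnip2C/C and 64.8, 81.7, 67.0, 76.4 and 83.4 in Fnip2T/T mice. *Bche* (butyrylcholinesterase) fell with 236, 91.7, 182 and 90.2 against 382, 273, 335, 373 and 381 (log2 fold change -1.33, standard error 0.27, limma adjusted p = 0.00387). *Pdcd10*, a scaffold protein of endothelial cells, fell as well (-0.98, limma adjusted p = 0.00854).

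**Figure D5:**
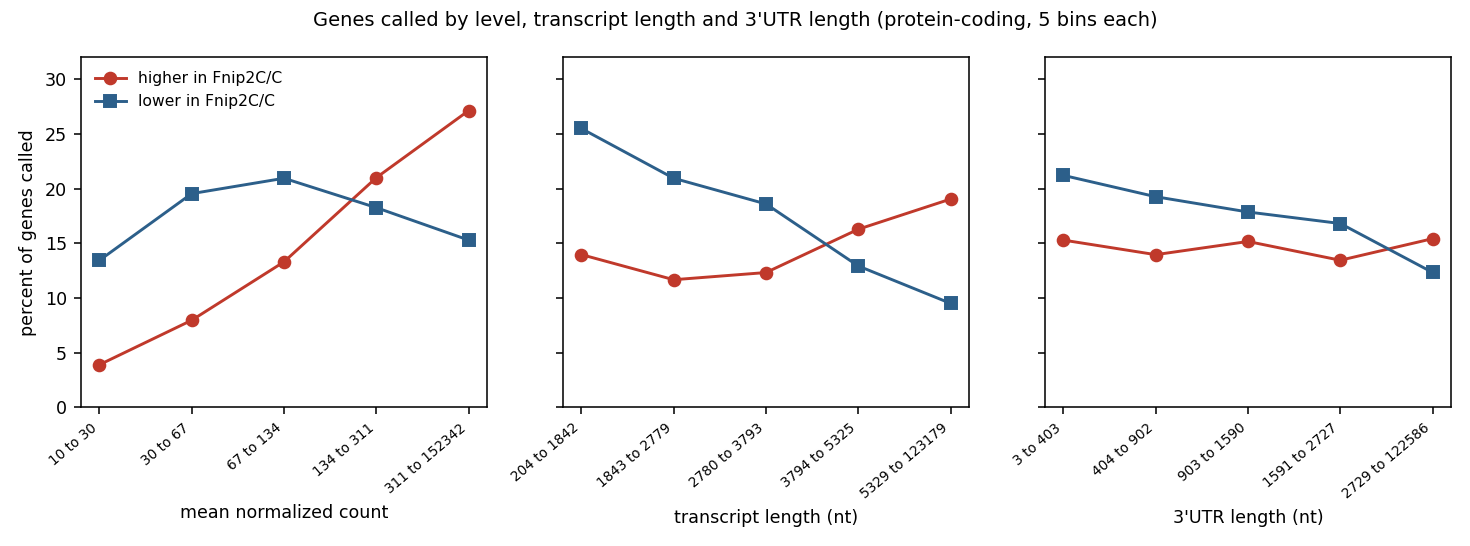
Percent of protein-coding genes called higher (circles) and lower (squares) in Fnip2C/C mice in 5 bins of mean normalized count, transcript length and 3′UTR length, each bin labelled with its range. The share called higher goes from 3.89% to 27.1% with level, and the share called lower from 25.5% to 9.501% with transcript length.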

How the data were processed

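RNA was isolated from gonadal fat with RNeasy columns, and 500 ng made QuantSeq 3′ FWD libraries, primed with oligo-dT and sequenced on a NextSeq 550 in 4 runs per mouse. The deposited values are a normalized signal, read counts per gene divided by a size factor per mouse, made by the authors. The submitters' processing notes name FastQC 0.11.9, HISAT2, SAMtools 1.12, HTSeq, DESeq2 and GRCm39. Liver was not used here, nor was 1 column that no label names. Entries repeating a name (7) were left out of tests. The members and gene lists were chosen with earlier results of these data known. Log2(value + 1) was tested in limma 3.58.1 (R 4.3.3) with Benjamini-Hochberg adjustment over 12798 genes, so fold changes of low genes are understated. Whole reads were recovered (100% of values, largest deviation 1.57e-09). On these edgeR 4.0.16 called 4144 genes and DESeq2 1.42.0 called 4722. Reads are not unique molecules. Replicates are mice, whose litters and batches are not given.

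The rule named *Fnip2* and its partners, the 12 largest rises and falls, the 5 lowest p-values each way, 3 genes per pathway list, 2 per marker list and well known members. Chosen after their values were seen were *Retn*, *Cidec*, *Aqp7*, *Plin5*, *Plin3*, *Fitm2*, *Lpl*, *Mogat1*, *Scd3*, *Gnb2*, *Mios*, *Nprl2*, *Tfe3*, *Tsc2*, *Rictor*, *Etfdh*, *mt-Nd4*, *mt-Atp6*, *mt-Atp8*, *mt-Nd6*, *mt-Nd4l*, *Rps20*, *Atf4*, *Hba-a2*, *C1qc*, *Bche* and *Pdcd10*. Sequences, gene classes and lengths came from RefSeq and a GENCODE annotation of GRCm38, which named 97.4% of entries. No coordinates of the files were used. Alternatives covered the scaling, pseudocount (0.5 and 10), minimum mean (none and 50), library weights and leaving out each mouse. They also covered both tools and a term for low against high mouse numbers. Some genes of the lists are not reported here by name. The scripts were tested on simulated data.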

Additional observations from a re-analysis of the deposited data

Results flagged for a closer look

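Of 366 sets of 4 or 5 values, 1 per genotype for each named gene and each share of reads, 20 held a mouse far from the others of its genotype. Chance alone flags about 1 in 20 such sets. Mouse 593 stood apart in 5 sets, all of them high: 15068 counts of *Cyp11a1*, 290.1 of *Gdf9*, 788 of *Fads6*, 0.832% of reads in processed pseudogenes and 17668 genes with a read at a common depth. Mouse 609 stood apart for *Tnnc2*, at 843 counts. The brown adipocyte genes *Cidea* and *Ucp1* were high in mouse 638, at 7507 and 476 counts, and in mouse 658, at 2224 and 1137 counts.

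Mouse 638 was also high for *Pdia4* (491 counts) and for *Per2* (5.86), and mouse 658 for *mt-Nd4* (386899) and *mt-Nd6* (28.04). Mouse 590 was high for *Acsl5* (72.9) and low for *Rpl22l1* (2.35). Mouse 657 was low for *Rps20* (6146). Mouse 608 was high for *Snord3a* (92.4) and mouse 599 low for *Pdcd10* (20.6). In mouse 607 the 20 most read genes took 28.2% of reads, less than in the other Fnip2T/T mice. No cause of these values was tested.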

How the results depend on the processing

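The counts of called genes over the whole table stayed within 1.5 times those reported, between 3023 (without Fnip2T/T mouse 657) and 4260 (without Fnip2C/C mouse 590) when a mouse was left out, and between 3196 (minimum mean of 50) and 4802 (library weights) otherwise. Genes higher ranged from 1351 to 2010 and genes lower from 1628 to 2284 with a mouse left out. No paired analysis was possible because the genotypes share no mouse and no replicate number. A term that set mice 638, 657 and 658 against the lower mouse numbers gave 4083 calls. On each side of that split the numbers still run in blocks of a single genotype. The term therefore cannot adjust for what mice of a block share. Within several gene lists the counts moved by over 1.5 times without mice 593 and 609, as given beside those lists.

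With a mouse left out, and without mice 593 and 609 together, the tests of shares of reads are too small to pass after adjustment. The difference (Fnip2C/C minus Fnip2T/T, percentage points) then ran from 0.0158 to 0.0341 for mitochondrial tRNA, from 0.0379 to 0.0795 for snoRNA and from -0.0224 to -0.0161 for replication histone genes, and was 0.0336, 0.0381 and -0.0209 without mice 593 and 609. Signs turned for shares that had not passed: the mitochondrial genome ran from -2.71 to 0.0174, long noncoding genes from -0.112 to 0.029 (0.0027 without mouse 599 and 0.029 without mouse 657), and the 20 most read genes from -2.41 to 0.945 (0.945 without mouse 593, and 1.04 without mice 593 and 609).

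Of 3451 values of named genes, 3332 kept their direction and side of the threshold, 82 lost the call, 14 gained it and 23 changed sign, all of the 23 in genes that had not passed. Leaving out 1 mouse at a time moved *Fnip1* between -0.16 and 0.17, *Cidec* between -0.36 and 0.080, *Fasn* between -0.010 and 0.43, *Adrb3* between -0.49 and 0.020, *Cyp11a1* between -1.11 (without mouse 593) and 3.51, *Tnnc2* between -1.21 and 0.58 (without mouse 609), *Cidea* between -0.34 (without mouse 638) and 1.31, and *Ucp1* between -2.09 and 0.061 (without mouse 658). *Fnip1* was also -0.046 in DESeq2, -0.075 in edgeR, -0.14 with library weights, -0.021 with quantile scaling, -0.065 with the same total and -0.078 without mice 593 and 609. Without those mice *Cidec* was 0.23, *Cyp11a1* -1.40 and *Tnnc2* 0.72, and with library weights *Gnas* was 0.022, *Tnnc2* 0.28 and *Cidea* -0.12. The cause was not tested.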
